A study of Mus musculus with 17 samples.

Results

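Islets of *Pax4* R192H and wildtype mice on standard chow were compared across all genes by bulk RNA sequencing. These were 6 of the 17 mice of the series, 3 of each genotype, taken by their labels as homozygous R192H knock-in or wildtype on the standard chow diet (SCD). All 6 were 12-week-old males of C57BL6/N background, littermates from crosses of heterozygous parents. The knock-in carries R200H in the endogenous mouse *Pax4* allele, the residue that corresponds to R192H of human PAX4, so every cell type of the mouse carries it. The 6 mice of the same table on a high-fat diet (HFD), 3 of each genotype, were 16 weeks old after 4 weeks of HFD and served as a second, independent genotype comparison. Age and diet differ together between the diets and cannot be told apart. RNA came from whole isolated islets, so a lower level can reflect fewer cells of a type or less RNA per cell, which cannot be told apart in bulk samples.

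PAX4 is a paired-box and homeodomain transcription factor that acts mainly as a repressor and directs endocrine progenitors toward the β cell fate. Its RNA falls to low levels after birth. An islet is a cluster of insulin-secreting β cells with glucagon-secreting α cells, somatostatin-secreting δ cells and pancreatic polypeptide cells. It also holds capillary endothelium, stromal cells and resident macrophages, which are the main leukocytes of a healthy islet. Lymphocytes are usually rare there, and isolated islets can carry along bits of exocrine tissue, lymph node, blood or gut.

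The altered codon lies in exon 7 of *Pax4* on the minus strand of chromosome 6 (GRCm38), at chr6:28444849-28444851. It is shown because it is the only designed difference between the groups. The reference coding sequence around it, with codon 200 in capitals, spans chr6:28444837-28444863.
Pax4 codon 200: gattcagtggccCGTgggaagctggct
*Pax4* itself was listed at 0 counts in all 12 mice, so its RNA gave no check of the genotype labels. A count of 0 allows a share of up to 1.24e-05% of the counts of the shallowest SCD library, by counting error alone. Of 39 genes annotated within 1 Mb of *Pax4*, itself included, 19 were tested, with log2 fold changes from -0.66 to 0.69. Of the 19, 0 had an unadjusted p below 0.05, against 3.1% of all tested genes. Tested genes without a match in the annotation, such as *ENSMUSG00000142788* below, have no position here and could not be counted. The nearest tested neighbours were *Gcc1*, a Golgi coiled-coil protein gene, at -0.12 and *Arf5*, a small GTPase gene of vesicle traffic, at -0.07.

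The SCD libraries held 24268157 to 32674354 counts, of which 2 genes without a symbol took 36.2 to 46.4%. Levels are given as CPM, the counts of a gene relative to the library total after scaling by trimmed mean of M values, and differences as log2 of R192H over wildtype. A total of 19137 genes passed the filter on low counts. Islet hormone genes were abundant in every mouse, and *Ins2* ranged from 14522 to 24859 CPM. Some libraries stood apart in markers of other tissues. R192H mouse 1 held 299 CPM of 7 intestinal epithelium markers against 41.0 to 54.0 CPM in the other SCD mice. Wildtype mouse 2 held 572 CPM of 20 stromal markers against 188 to 346 CPM in the others. Wildtype mouse 1 held 187 CPM of 6 adipocyte and erythroid markers against 26.9 to 50.1 CPM. Acinar markers spanned 15590 to 30750 CPM in wildtype and 15790 to 22420 CPM in R192H mice. With the acinar marker level as a covariate the SCD comparison gave 0 called genes and 601 at an unadjusted p below 0.05, with 12 macrophage markers and 8 T and B cell markers lower at that p. The part of the intestinal, stromal, adipocyte and erythroid signals in the results was not tested.

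No gene passed the threshold of an adjusted p below 0.05 with a log2 fold change beyond 0.5 by edgeR's quasi-likelihood test (0 of 19137, 0%), and the lowest Benjamini-Hochberg adjusted p was 0.237. At an unadjusted p below 0.05 there were 594 genes (3.1%), of which 401 (2.1%) were lower and 193 (1.01%) higher in R192H islets. The genotypes did not overlap for 1499 genes (7.83%), 807 lower (4.22%) and 692 higher (3.62%) in R192H islets. Of all tested genes 50.7% lay below 0 and 49.3% above. DESeq2, run on the same counts, called 26 of 20688 genes (0.126%), 21 of them lower (0.102%) and 5 higher (0.0242%). Precision depended on level. The 95% interval lay within a 2-fold change for 11169 genes (58.4%), for 96.2% of the genes at 10 to 100 CPM, and for 1.38% of those under 1 CPM. The plot of fold change against level shows this funnel, with the islet transcription factors and hormones near 0 and leukocyte markers below it.

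**Figure D1:**
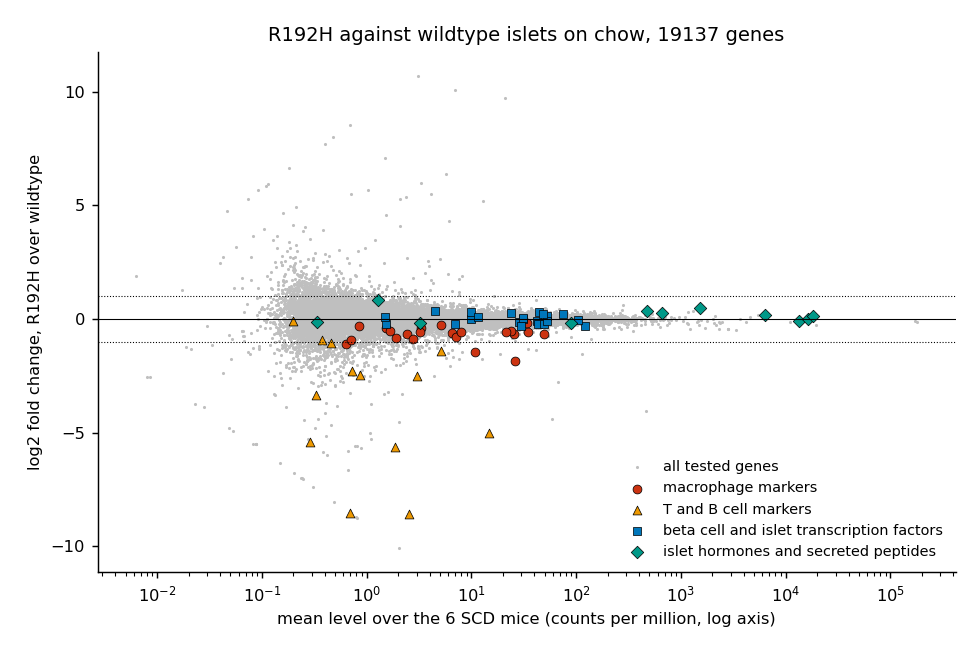
Each grey point is 1 of 19137 tested genes, with the mean level over the 6 SCD mice in CPM (log axis) against the log2 fold change of R192H over wildtype. Coloured points are 4 marker or gene lists and dotted lines mark a 2-fold change. All 22 macrophage markers and all 13 tested T and B cell markers lie below 0.

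Among the genes with the lowest p-values, several are genes of leukocytes, and these were lower in R192H islets. *Lcp1*, which encodes the leukocyte actin-bundling protein L-plastin, measured 14.1, 8.82 and 12.8 CPM in the wildtype mice and 5.59, 3.74 and 3.89 CPM in the R192H mice. *Ptprc*, the gene of the pan-leukocyte surface phosphatase CD45, measured 20.8, 10.9 and 16.1 CPM against 7.27, 5.08 and 5.15 CPM. Neither gene overlapped between the genotypes. The log2 differences were -1.43 ± 0.25 (SE, n = 3 mice per genotype) for *Lcp1* and -1.45 ± 0.25 for *Ptprc*, each with an edgeR adjusted p of 0.273 and a DESeq2 adjusted p of 0.000338.

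*Lyz2*, the lysozyme gene of macrophages and other myeloid cells, measured 61.3, 27.5 and 33.8 CPM in wildtype and 10.9, 9.82 and 13.9 CPM in R192H islets. Its difference was -1.83 ± 0.32 on the log2 scale, with an edgeR adjusted p of 0.354 and a DESeq2 adjusted p of 8.5e-06. *Coro1a*, a leukocyte actin regulator, measured 11.6, 4.96 and 9.75 CPM against 3.36, 2.29 and 2.25 CPM. *Lyn*, a Src-family kinase of B and myeloid cells, measured 7.92, 7.27 and 7.82 CPM against 4.75, 4.11 and 4.28 CPM, the narrowest spread of these genes. *Ctsc*, which encodes the protease that activates granule proteases, differed by -0.89 ± 0.20 and *Itgb2*, the β2 integrin gene, by -1.70 ± 0.38. *Siglec1*, a sialic acid receptor of a macrophage subset, measured 2.43, 1.10 and 1.04 CPM in wildtype and 0.05, 0.03 and 0 CPM in R192H mice, or 156 counts against 3, a ratio of 49.7 with a counting interval of 16.7 to 243. It had the lowest p of the whole table (adjusted p = 0.237 by edgeR, 0.000338 by DESeq2). In each of these 8 genes wildtype mouse 1 was the highest. Most were named from genes whose groups did not overlap, so that separation is a description.

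**Figure D2:**
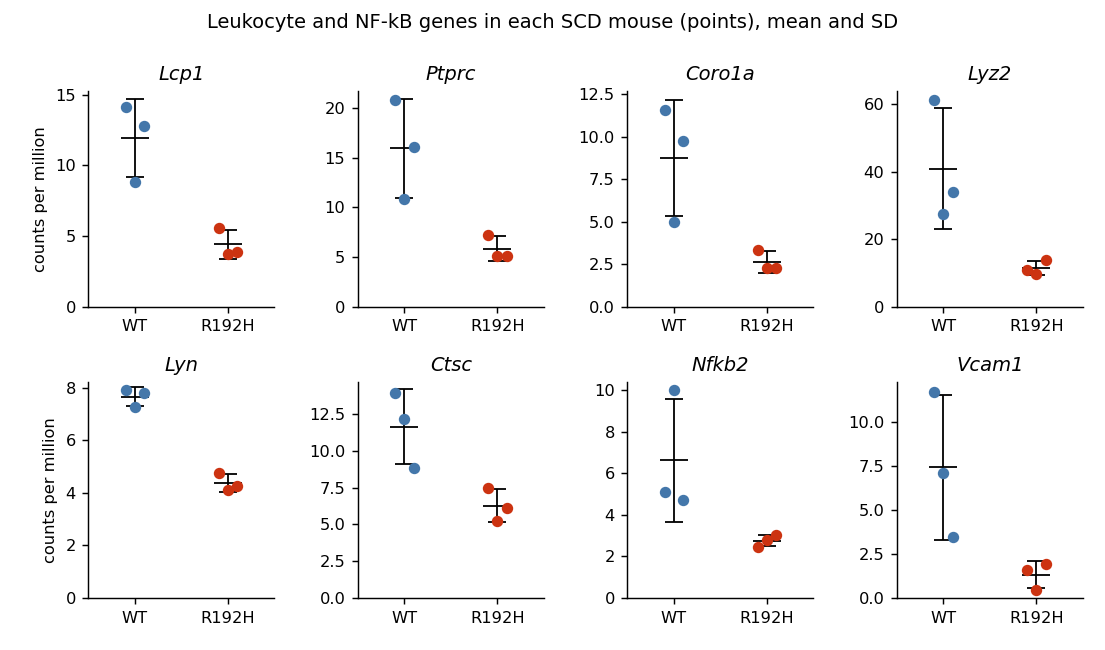
Points are single SCD mice in CPM for 8 genes with wildtype (WT) on the left and R192H on the right, and bars give the mean and SD of 3 mice. The R192H mice sit below all wildtype mice in each panel, which the choice of genes largely fixed, as for *Lyn* with at most 4.75 against at least 7.27 CPM.

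All 22 macrophage markers were measured and all 22 were lower in R192H islets, 12 of them (54.5%) at an unadjusted p below 0.05, against 2.1% of all tested genes. Their median was -0.59 on the log2 scale against -0.00 over all genes. Summed over the list, wildtype mice held 391, 279 and 338 CPM and R192H mice 228, 199 and 202 CPM, which do not overlap. *C1qb*, a chain of complement C1q made by tissue macrophages, measured 7.85, 8.42 and 7.48 CPM against 5.31, 4.87 and 5.42 CPM. *H2-Eb1*, an MHC class II chain of antigen-presenting cells, measured 26.3, 21.6 and 28.8 CPM against 20.2, 16.9 and 14.0 CPM. The count stayed at 10 to 12 whichever mouse was left out.

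Of 21 listed lymphocyte markers, 13 passed the filter on low counts and all 13 were lower, 8 of them at an unadjusted p below 0.05 (61.5%, against 2.1% of all tested genes), with a median of -2.50. Some of these passed the filter only through wildtype mice and therefore had to be lower, so the counts are a description. The sums were 36.4, 22.1 and 111.5 CPM in wildtype and 13.3, 1.84 and 2.75 CPM in R192H mice. *Ms4a1*, the gene of the B cell antigen CD20, measured 6.70, 2.23 and 6.25 CPM in the wildtype mice and 0, 0.03 and 0 CPM in the R192H mice. The ratio of the summed counts, 541 against 1, was 517 with a counting interval of 92.4 to 20500. *Ighm*, the immunoglobulin µ heavy chain, measured 13.8, 11.4 and 61.0 CPM against 0.94, 0.82 and 0.88 CPM, with a DESeq2 adjusted p of 0.000792. *Cxcl13*, a chemokine that draws B cells into follicles, measured 0.27, 2.28 and 2.20 CPM against 0 in each R192H mouse, or 184 counts against 0, at least 58.6-fold lower against a floor of 3 counts over the group. *Cd2*, a T cell adhesion receptor, had 61 counts in all wildtype mice together and 1 in all R192H mice. Each of these genes was lower in every R192H mouse than in every wildtype mouse, and among the R192H mice the list sum was highest in mouse 1. Without R192H mouse 2 the list count was 5, and it was 1 when each of 12 mice had to reach 10 counts.

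**Figure D3:**
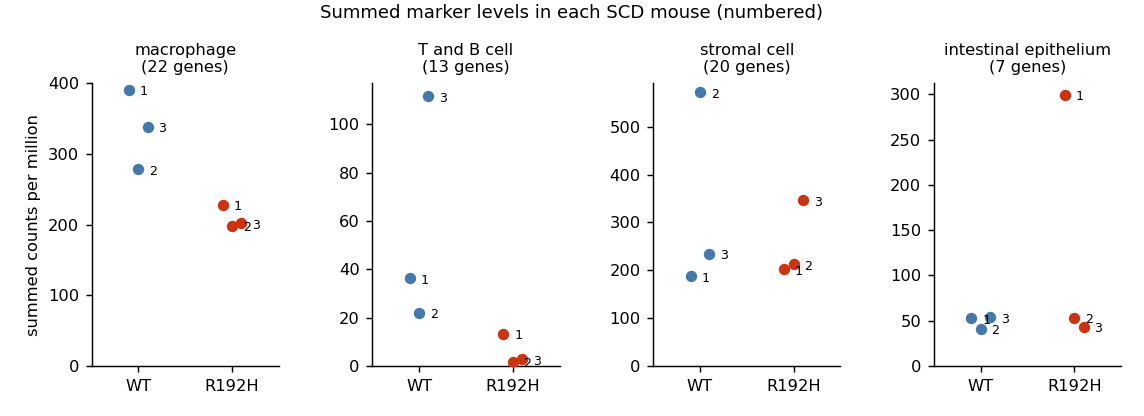
Each numbered point is the summed level, in CPM, of 1 marker list in 1 SCD mouse. Macrophage and T and B cell sums do not overlap between wildtype (WT) and R192H mice, the stromal sum is highest in wildtype mouse 2 at 572 CPM, and the intestinal sum in R192H mouse 1 at 299 CPM.

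NF-kB is the transcription factor family released by cytokine and danger receptors, and interferons induce antiviral and antigen-presentation genes through STAT and IRF factors. Of 20 listed NF-kB target genes, 17 passed the filter on low counts and all 17 were below 0. Of these, 9 were lower at an unadjusted p below 0.05 (52.9%), with a median of -0.89. Of 41 interferon response and MHC class I genes all 41 were below 0 and 10 passed that p (24.4%), with a median of -0.57. Of all tested genes 50.7% were below 0 and 2.1% were lower at that p. With at least 10 counts in each of 12 mice, the counts at that p were 6 for NF-kB targets and 9 for interferon genes. A member at low level can pass the filter mainly through the wildtype mice, so these counts are a description. *Nfkb2*, a NF-kB subunit and itself a target, measured 5.12, 10.004 and 4.73 CPM in wildtype and 2.47, 2.79 and 3.02 CPM in R192H mice. *Vcam1*, an endothelial and stromal adhesion molecule for leukocytes, measured 11.7, 7.11 and 3.45 CPM against 1.58, 0.45 and 1.91 CPM, a difference of -2.51 ± 0.56 with a DESeq2 adjusted p of 0.00166. These 2 genes separated the genotypes in every mouse. *Cxcl2*, a neutrophil chemokine, differed by -2.27 ± 0.63 and *Relb*, a partner of *Nfkb2*, by -1.32 ± 0.38. The macrophage sums and the T and B cell sums above differed in the same mice, and their part in these values was not tested. *Cxcl10*, an interferon-induced T cell chemokine, measured 1.89, 1.23 and 5.65 CPM against 0.48, 0.24 and 0.19 CPM. *Ddx58*, the RNA sensor RIG-I, measured 15.9, 17.2 and 21.2 CPM against 12.2, 10.1 and 12.6 CPM. *Oasl2*, an antiviral oligoadenylate synthetase-like gene, differed by -1.41 ± 0.40. Interferon gene sums overlapped between the genotypes, at 658 to 841 CPM in wildtype and 472 to 666 CPM in R192H mice. The interferon count moved with single mice. It was 3 without wildtype mouse 3, 5 and 6 without R192H mice 2 and 3, and 20 without R192H mouse 1.

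The promoters of 4 of these genes are shown because each holds letters that match a motif of factors known to act on such genes, and they were chosen after the values were seen. They are 300-base windows around the start site (RefSeq, GRCm38.p6), written 5′ to 3′ on the strand of the gene. Capitals mark matches on either strand to GGGA and CC with any 4 bases between them (NF-kB), to GAAA and GAAA with any 2 bases between them (the interferon-stimulated response element, ISRE) or to GAGGAAGT (PU.1, a factor needed for macrophages). *Cxcl10* is at chr5:92348840-92349139 (minus strand), *Nfkb2* at chr19:46304487-46304786 (plus), *Ddx58* at chr4:40239776-40240075 (minus) and *C1qc*, another C1q chain, at chr4:136892865-136893164 (minus).
Cxcl10: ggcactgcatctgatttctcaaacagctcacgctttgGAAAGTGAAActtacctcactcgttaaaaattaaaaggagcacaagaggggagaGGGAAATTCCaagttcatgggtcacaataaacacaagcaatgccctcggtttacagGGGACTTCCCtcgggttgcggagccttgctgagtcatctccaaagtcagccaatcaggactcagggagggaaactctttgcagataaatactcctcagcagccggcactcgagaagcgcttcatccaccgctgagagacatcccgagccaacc
Nfkb2: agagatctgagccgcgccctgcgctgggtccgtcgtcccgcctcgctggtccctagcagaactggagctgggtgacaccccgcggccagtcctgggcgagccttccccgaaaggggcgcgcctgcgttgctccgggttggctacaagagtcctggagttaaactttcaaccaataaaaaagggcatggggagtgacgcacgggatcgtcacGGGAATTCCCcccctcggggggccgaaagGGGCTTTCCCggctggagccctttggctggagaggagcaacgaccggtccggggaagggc
Ddx58: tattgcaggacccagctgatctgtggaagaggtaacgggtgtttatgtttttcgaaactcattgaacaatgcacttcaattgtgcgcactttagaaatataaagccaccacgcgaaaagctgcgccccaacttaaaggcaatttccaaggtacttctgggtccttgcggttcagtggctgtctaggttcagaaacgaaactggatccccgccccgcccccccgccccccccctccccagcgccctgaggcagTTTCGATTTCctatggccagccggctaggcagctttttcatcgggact
C1qc: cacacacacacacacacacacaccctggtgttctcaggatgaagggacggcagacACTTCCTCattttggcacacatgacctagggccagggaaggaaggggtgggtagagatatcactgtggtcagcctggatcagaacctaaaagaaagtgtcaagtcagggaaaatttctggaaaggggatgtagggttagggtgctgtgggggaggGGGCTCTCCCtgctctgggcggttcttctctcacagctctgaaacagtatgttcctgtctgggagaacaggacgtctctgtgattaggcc
*Cxcl10* holds 1 ISRE and 2 NF-kB matches, *Nfkb2* 2 NF-kB matches, *Ddx58* 1 ISRE match just after its start site, and *C1qc* 1 PU.1 and 1 NF-kB match. The NF-kB motif was in 9 of the 13 tested NF-kB targets with a promoter in the table (69.2%). It was in 29.9% of all 11814 tested genes with one. The ISRE was in 18 of 32 tested interferon response genes (56.2%) and in 3.78% of all tested genes. These lists were assembled from known targets, so such shares describe the lists and not the mice. The PU.1 motif, shown for *C1qc*, was in 2 of the 14 macrophage markers with a promoter (14.3%). Over the 249 genes lower at an unadjusted p below 0.05 that had a promoter, PU.1 matches stood in 7.63%, ISRE matches in 8.43% and NF-kB matches in 33.3%, against 3.56%, 3.78% and 29.9% of all tested genes with one. Over the 96 higher genes the shares were 2.08%, 2.08% and 22.9%. A match is a description of letters and not a bound site.

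Immediate early genes, which are transcribed within minutes of stimulation or tissue handling, mostly lay below 0. Of 27 tested, 23 were below 0, against 50.7% of all tested genes. At an unadjusted p below 0.05, 4 were lower (14.8%, against 2.1% of all tested genes). *Junb*, an AP-1 subunit, measured 104.6, 114.4 and 121.0 CPM in wildtype and 73.1, 64.0 and 57.4 CPM in R192H islets, a difference of -0.81 ± 0.26. *Dusp1*, a phosphatase that shuts off MAP kinases, measured 54.4, 62.5 and 58.5 CPM against 44.1, 41.4 and 36.0 CPM. Neither overlapped between the genotypes. The list count was 2 without wildtype mouse 2.

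Replication-dependent histone genes, which are transcribed in S phase and end without a poly(A) tail, were below 0 for 53 of 62 tested members, and 16 were lower at an unadjusted p below 0.05 (25.8%, against 2.1% of all tested genes, of which 50.7% were below 0). The median was -0.30. *Hist1h3f* measured 21.9, 22.1 and 18.2 CPM in wildtype and 13.8, 12.6 and 15.8 CPM in R192H islets, a difference of -0.56 ± 0.14. *Hist1h4a* measured 7.38, 7.16 and 6.01 CPM against 4.30, 4.13 and 4.05 CPM. These genes are near copies of one another, so the estimated counts may divide reads between members. The histone sums were 745 to 949 CPM in wildtype and 632 to 737 CPM in R192H mice. The list count was 5 without wildtype mouse 1, 8 without R192H mouse 1 and 10 without R192H mouse 2. Proliferation genes outside the histones were below 0 for 28 of 39, with 1 at an unadjusted p below 0.05.

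**Figure D4:**
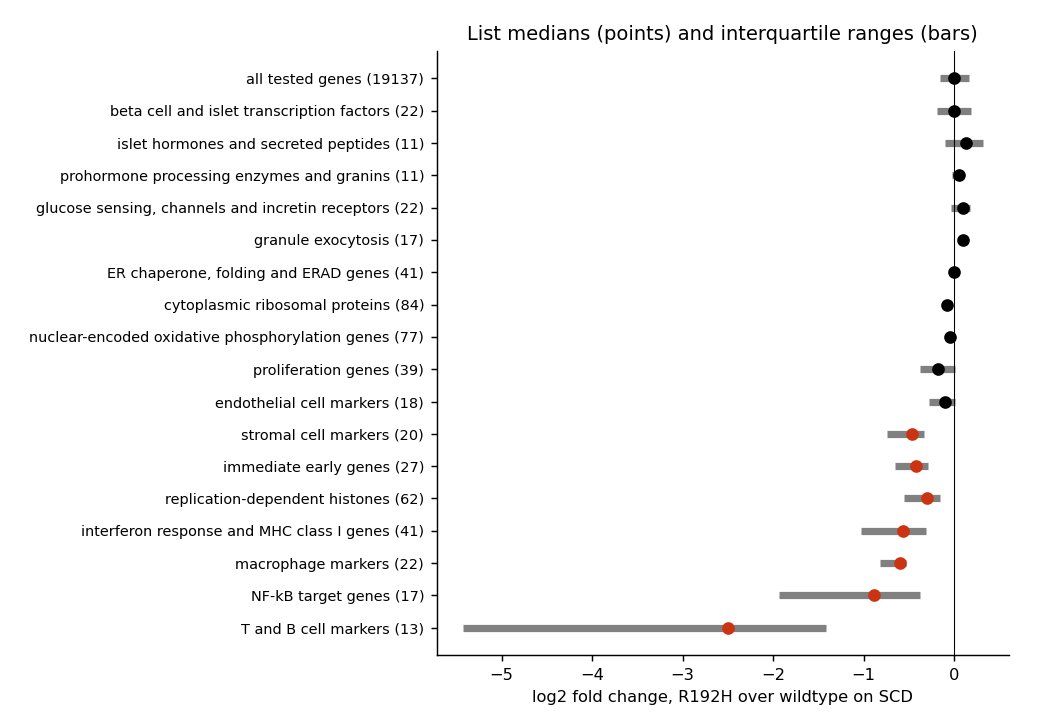
Points are list medians and bars the interquartile range of the log2 fold change of R192H over wildtype on SCD, with the number of tested genes in brackets. Red points have a median below -0.25. Among the lists near 0 are the islet transcription factors at -0.00 and the oxidative phosphorylation genes at -0.04, and the T and B cell markers lie lowest at -2.50.

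Of 22 tested β cell and islet transcription factors, 11 were above 0 and 11 below, and 1 of the 22 passed an unadjusted p below 0.05, against 3.1% of all tested genes. That was *Insm1*, a zinc-finger factor of endocrine differentiation, at 27.9, 33.2 and 37.9 CPM in wildtype and 27.1, 29.4 and 23.4 CPM in R192H islets, which overlap. The count was 0 with DESeq2, limma-voom and several other settings, and without wildtype mouse 3, R192H mouse 1 or R192H mouse 3. *Mafa*, the factor of mature β cells, measured 135, 87.2 and 182 CPM against 136, 140 and 50.2 CPM, with a 95% interval of -1.12 to 0.50. *Nkx6-1* had an interval of -0.69 to 0.22 and *Pax6*, a factor of all islet endocrine cells, lay at -0.04 ± 0.12. The intervals of 18 of the 22 factors excluded a 2-fold change.

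Hormone genes overlapped between the genotypes apart from *Pyy*. *Ins1* measured 19720, 14373 and 15330 CPM in wildtype and 18097, 19552 and 11236 CPM in R192H islets, with an interval of -0.51 to 0.47. *Ins2* had an interval of -0.36 to 0.63, *Gcg*, the glucagon gene, of -0.30 to 0.68, and *Sst*, the somatostatin gene, of -0.05 to 0.62. The genotypes overlapped in all 4. *Pyy*, the peptide YY gene of PP and other endocrine cells, was the 1 of 11 hormone genes at an unadjusted p below 0.05 (against 3.1% of all tested genes), with 461, 391 and 395 CPM in wildtype and 473, 547 and 573 CPM in R192H islets. Its difference of 0.35 ± 0.16 had an edgeR adjusted p of 1, and it missed the unadjusted threshold without wildtype mouse 2 or 3 or R192H mouse 2 or 3, with an unadjusted p of up to 0.123. Of the 9 δ, PP and ε cell markers 8 were above 0, with list sums of 2050 to 2522 CPM in wildtype and 2587 to 3451 CPM in R192H mice.

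None of the 12 genes that the study names reached an unadjusted p below 0.05 by edgeR on chow, against 3.1% of all tested genes. The interval lay within a 2-fold change for 9 of the 12. *Aldh1a3*, a marker of β cell dedifferentiation, had an interval of -0.69 to 1.82, and *Cacna1d* one of -0.59 to 1.13. *Slc2a2*, the glucose transporter GLUT2, measured 618, 493 and 720 CPM against 632, 669 and 662 CPM. Prohormone processing enzymes and granins had 11 of 11 intervals within a 2-fold change, and glucose sensing, channel and incretin receptor genes 20 of 22. Granule exocytosis genes had 16 of 17 within it, with sums of 1716 to 1824 CPM in wildtype and 1863 to 1894 CPM in R192H mice. For these lists 0 members passed an unadjusted p below 0.05, against 3.1% of all tested genes. The same held for the 41 tested ER chaperone, folding and ERAD genes, whose 41 intervals all excluded a 2-fold change and whose median was 0.00. Cytoplasmic ribosomal protein genes were below 0 for 75 of 84, by a median of only -0.08, with 0 at an unadjusted p below 0.05. Nuclear-encoded oxidative phosphorylation genes had a median of -0.04 and 77 of 77 intervals within a 2-fold change. A smaller difference than 2-fold remains possible for each of these genes, and a larger one for those whose interval reached beyond it.

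Other lists had small numbers of members at an unadjusted p below 0.05. For some of them the share was above the 2.1% of all tested genes that were lower. α cell, duct and Schwann cell markers, circadian clock, heat shock, p53 target, lysosome, zinc transport and imprinted genes had 0. Among 37 proteasome subunits 2 were lower (5.41%). Both, *Psmb8* at -0.50 ± 0.18 and *Psmb9* at -0.59 ± 0.22, are the interferon-induced immunoproteasome subunits. *Psmb8* missed that p without wildtype mouse 3 or R192H mouse 2 (unadjusted p up to 0.0837), and *Psmb9* without wildtype mouse 1 or 3 or R192H mouse 2 (up to 0.0723). Small nucleolar RNAs, which guide ribosomal RNA modification, were tested for 15 of the 112 in the table. Of the 15, 14 were below 0 and 3 were lower at that p (20.0%). *Snora74a* measured 20.2, 27.4 and 20.6 CPM in wildtype and 13.2, 15.03 and 18.0 CPM in R192H islets. Of 12 protein-coding genes of the mitochondrial genome 2 were lower (16.7%). These were the complex I subunits *mt-Nd3* at -0.76 ± 0.31 and *mt-Nd6* at -1.39 ± 0.57. *mt-Nd3* missed that p with any 1 wildtype mouse left out (unadjusted p up to 0.116) and lay at -0.45 without R192H mouse 3 (unadjusted p = 0.067). *mt-Nd6* lay at -0.83 without wildtype mouse 2 (unadjusted p = 0.175) and also missed that p without R192H mouse 2 or 3. Genes normally silenced in β cells, the disallowed genes, were below 0 for 17 of 20 with a median of -0.40 and 0 at that p. Their sum was highest in wildtype mouse 2, which also stood apart in stromal markers, at 122.9 CPM against 61.0 and 67.8 CPM in the other wildtype and 52.7 to 88.8 CPM in R192H mice. *Igfbp4*, an IGF-binding protein gene on that list, lay at -0.93, and at 0.05 without wildtype mouse 2. Stromal markers were below 0 for 20 of 20, with 1 at that p, and their sums overlapped. *Vim*, an intermediate filament gene of mesenchymal cells, was highest in wildtype mouse 2 at 25.8 CPM, against 8.79 and 13.0 CPM in the other wildtype and 6.58 to 11.9 CPM in R192H mice. Its log2 difference was -0.87, and -0.33 without wildtype mouse 2.

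**Figure D5:**
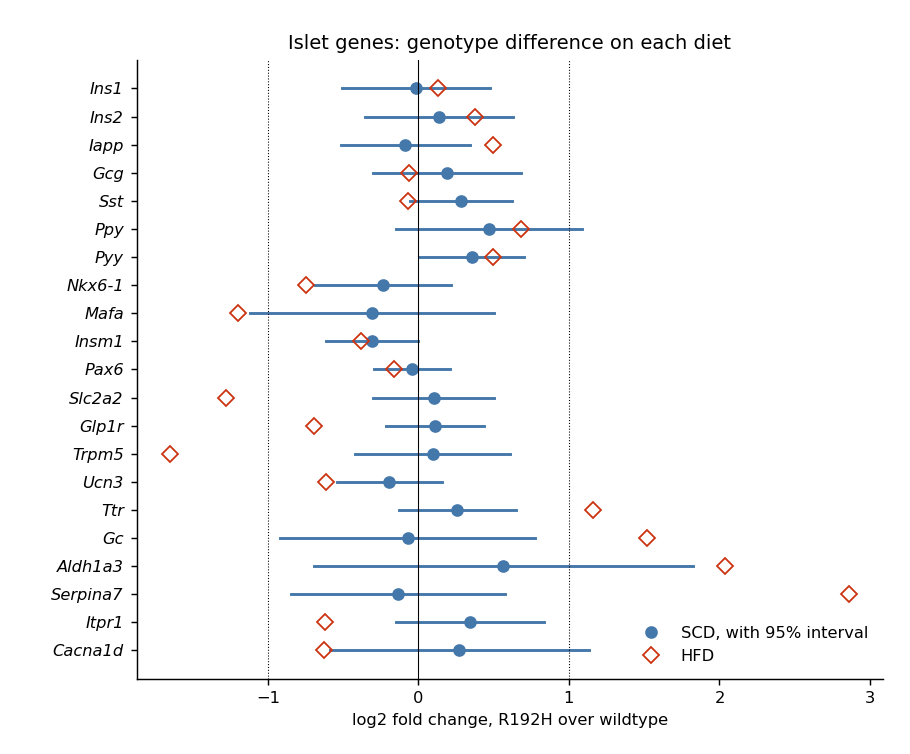
Filled points and lines are the log2 fold change of R192H over wildtype on SCD with its 95% interval, and open diamonds the same contrast on HFD, for islet genes. Dotted lines mark a 2-fold change. Most SCD intervals span 0 within the dotted lines, and *Serpina7* has the largest diamond at 2.86.

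Of the 47 lists, those with a member higher at an unadjusted p below 0.05 were the intestinal markers with 2, and the hormones, δ, PP and ε markers and glycolysis genes with 1 each, against 1.01% of all tested genes. *Gpd1*, the glycolysis member, had an unadjusted p of 0.091 without R192H mouse 1. *AI480526* measured 2.80, 4.72 and 7.24 CPM in wildtype and 8.31, 9.63 and 12.8 CPM in R192H islets, a difference of 1.05 ± 0.30. *Fam19a1*, a secreted chemokine-like protein gene, measured 3.84, 3.70 and 3.65 CPM against 4.80, 5.61 and 5.84 CPM. *Kcnj3*, a G protein-gated potassium channel subunit, measured 1.04, 1.77 and 2.12 CPM against 2.72, 3.40 and 3.63 CPM. These 3 genes were chosen among those without overlap between the genotypes, and each had an edgeR adjusted p of 1. *Msh3*, a mismatch repair gene, differed by 0.40 ± 0.13 and *Gpd1*, the cytosolic glycerol-3-phosphate dehydrogenase, by 0.61 ± 0.21.

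The excess of intestinal markers was in 1 mouse. *Alpi*, the intestinal alkaline phosphatase, had 42.1 CPM in R192H mouse 1 and 0 in the other R192H mice, and at most 0.03 CPM in wildtype. *Fabp1*, the liver and intestinal fatty acid-binding protein, had 739 counts in R192H mouse 1 and 0 in each of the other 5 SCD mice, and DESeq2 called it at an adjusted p of 0.000338. R192H mouse 1 alone held the counts of 3 of the 5 higher DESeq2 calls, the other two being *Treh*, the brush-border trehalase, with 125 counts and *Adh6a*, an alcohol dehydrogenase, with 143. *Mttp*, which loads lipid onto lipoproteins, measured 37.1 CPM in that mouse and 13.5 and 15.1 CPM in the other R192H mice, against 9.92 to 12.0 CPM in wildtype. *Gm43126*, a predicted gene, measured 1.22, 0.68 and 2.29 CPM in R192H mice and 0 in each wildtype mouse. With 134 counts it was at least 46.8-fold higher in R192H mice, against a floor of 3 counts over the group. On HFD it was the wildtype mice that held more, at 1.09, 0.14 and 0.65 CPM against 0, 0.08 and 0 CPM. The remaining higher DESeq2 call, *ENSMUSG00000142788*, which has no symbol, measured 0.48, 0.24 and 2.18 CPM in R192H mice and 0 in each wildtype mouse on SCD (85 counts against 0). On HFD it measured 1.07, 0.59 and 0.25 CPM against 0 in each wildtype mouse, with an edgeR adjusted p of 0.0412 there.

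The HFD mice gave a separate genotype contrast that shares no mouse with the SCD contrast. On HFD edgeR called 460 genes (2.4%), 295 higher and 165 lower. Acinar markers moved with genotype there, with sums of 19160 to 29900 CPM in wildtype and 44260 to 116600 CPM in R192H mice. With the acinar marker level as a covariate 0 genes were called on HFD. As those sums did not overlap between the genotypes, the covariate cannot separate acinar level from genotype on HFD. Of the 460, 32 had an unadjusted p below 0.05 on SCD, 10 higher and 22 lower, against 594 of all 19137 tested genes (3.1%). Of the 22 that were lower on SCD, 19 were among the 295 called higher on HFD and 3 among the 165 called lower, and the 10 that were higher on SCD were all among the 295. The same 460 genes gave 35 at that p on SCD with the acinar covariate, 28 in a fit that blocks on mouse number and 24 to 29 with an SCD mouse left out. The 295 genes higher on HFD had an SCD median of -0.02 and the 165 lower genes one of 0.03. Conversely, of the 401 genes lower at an unadjusted p below 0.05 on SCD, 261 were above 0 on HFD and 139 below, with a HFD median of 0.15. At an unadjusted p below 0.05 on HFD, 52 of the 401 were higher and 18 lower, against 8.87% and 6.96% of all tested genes.

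On HFD the macrophage sums of the genotypes overlapped. Macrophage markers had a HFD median of 0.06, with sums of 206 to 228 CPM in wildtype and 180 to 276 CPM in R192H mice. T and B cell markers had a HFD median of 1.76, with sums of 2.35 to 5.21 CPM in wildtype and 2.73 to 36.5 CPM in R192H mice. The wildtype SCD mice, at 22.1 to 111.5 CPM, were thus above the wildtype HFD mice as well as the R192H SCD mice in this sum, as they were for the macrophage sum. *Ptprc* differed by 0.37 on HFD and *Lyz2* by 0.44. The difference between the diets for *Ptprc* was 1.82 on the log2 scale, with an edgeR adjusted p of 0.0569, and for *Lyz2* 2.26 with 0.0722, so neither passed the threshold. *Ms4a1* measured 0, 0.10 and 0.21 CPM in wildtype and 4.01, 0.04 and 0.06 CPM in R192H mice on HFD, where a single R192H mouse carried it. That mouse, R192H HFD mouse 1, also held 17.9 CPM of *Alpi*. Of the 62 tested histones 19 were called higher on HFD, against 295 of all 19137 genes. The acinar covariate left 0 calls of any gene on HFD, where it cannot be separated from genotype. *Hist1h3f* differed by -0.56 on SCD and by 0.60 on HFD, and *Hist1h4a* by -0.72 and 1.16. The difference between diets was 1.16 for *Hist1h3f* (adjusted p = 0.0344 by edgeR) and 1.88 for *Hist1h4a* (0.0208), among 34 genes (0.178%) called for it. On HFD the 3 R192H mice had 31.9, 36.4 and 33.9 CPM of *Hist1h3f* and the wildtype mice 20.2, 25.8 and 21.6 CPM.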

How the data were processed

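Islet RNA (TRIzol extracts, TruSeq Stranded Total RNA libraries) was aligned and quantified by the authors with STAR 2.7.1 and RSEM 1.3.3 on mm10, and the deposited table holds expected counts per gene, which divide multi-mapping reads between genes. The annotation release is not given in the sources used here. Expected counts were rounded. Genes were kept by filterByExpr with a minimum count of 10, normalised by trimmed mean of M values, and tested in R 4.3.3 with edgeR 4.0.16 (robust quasi-likelihood F-test, all 12 mice, Benjamini-Hochberg adjustment). Called genes had an adjusted p below 0.05 and a log2 fold change beyond 0.5. The SE is the log2 fold change divided by the root of F, and 95% intervals use the t distribution. DESeq2 1.42.0 and limma 3.58.1 were alternatives, beside other normalisations, filters, models and each mouse left out. The replicate numbers do not pair the mice. Scripts were tested on simulated data. The table of the β cell knockout mice was not used here. Symbols and coordinates were taken from GENCODE vM21 (90.7% of tested genes matched). Counting intervals and floors cover counting error only. The edgeR p-values rest on the spread between the 3 mice of a group, estimated over all 12 mice, HFD mice included.

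The 47 gene lists and the rule for named genes were chosen with earlier results of these data known. The rule took the genes the study names, genes called by edgeR, the 10 lowest p-values in each direction among genes with a symbol, a mean of at least 1 CPM and no overlap, up to 20 DESeq2 calls, at most 4 members per list by p and then level, *Pax4* with its nearest tested neighbours, *Nnt*, *Ins1*, *Ins2*, *Gcg* and *Sst*, and the 3 largest differences in each direction called on HFD. *C1qc*, the motifs and the promoters were chosen after the values were seen, as were the alternatives without robust estimation, with DESeq2 on the filtered genes, and for list counts.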

Additional observations from a re-analysis of the deposited data

Results flagged for a closer look

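For 8 named genes the R192H difference on HFD differed from that on SCD by edgeR's test of the interaction, at an adjusted p below 0.05. *Dapl1* differed between the diets by 2.94 on the log2 scale, *C1qtnf1* by 3.06 and *Serpina7* by 3.00, all 3 near parity on SCD (0.05, -0.03 and -0.14) and higher in R192H islets on HFD. *T2* differed by -2.88, from -0.20 on SCD to -3.08 on HFD. *Hist1h3f*, *Hist1h3h* and *Hist1h4a* differed by 1.16, 2.53 and 1.88, each lower on SCD and higher on HFD. *Gm43126* differed by -13.03, a fitted value that depends on groups at 0 counts. It had 0 counts in each wildtype SCD mouse, and measured 1.09, 0.14 and 0.65 CPM in the wildtype and 0, 0.08 and 0 CPM in the R192H HFD mice. No formal outlier test was applied to the groups of 3 mice.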

How the results depend on the processing

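The 0 called genes became 91 without a filter on low counts, 1 in a model of the 6 SCD mice, 26 with DESeq2, 51 with DESeq2 on the 6 SCD mice and 19 with DESeq2 on the filtered genes. It stayed at 0 whichever mouse was left out. Genes at an unadjusted p below 0.05 numbered 1372 without the filter and 579 to 715 with a mouse left out, and intervals within 2-fold 10228 to 10636. Where the HFD calls were redone in each setting, those with an unadjusted p below 0.05 on SCD numbered 115 of 1073 without the filter, 53 of 1002 with DESeq2 on the filtered genes, 0 of 0 with an acinar covariate, and 20 (of 326, without R192H mouse 2) to 39 (of 532) with a mouse left out. The 6-mouse DESeq2 model, which has no HFD calls of its own, gave 16 of the 460. Interferon genes lower numbered 16 without the filter, 16 in the model of 6 mice, 17 with DESeq2 on 6 mice, and 3 to 20 with a mouse left out. T and B cell markers numbered 1 with at least 10 counts in each mouse, 5 in the model of 6 mice, 5 with limma-voom, and 5 to 8 with a mouse left out. Macrophage markers numbered 10 to 12 and NF-kB targets 7 to 12 with a mouse left out. Histones numbered 9 with DESeq2 on 6 mice, 9 with limma-voom and 5 to 18 with a mouse left out. Immediate early genes numbered 12 without the filter, 8 in the model of 6 mice, 9 with DESeq2 on 6 mice and 2 to 6 with a mouse left out. *Alpi* reversed to -1.77 without R192H mouse 1. The transcription factor count of 1 was 0 in 9 of the other settings besides the block and without wildtype mouse 3, R192H mouse 1 or R192H mouse 3. Apart from these differing sets of HFD calls, the cause of the shifts was not tested.

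Samples with the same replicate number did not deviate together (correlations of 0.174, -0.26 and -0.118). With the number as a replicate block, 0 genes were called, 494 had an unadjusted p below 0.05, 13 of the 199 genes then called on HFD passed it on SCD, and the transcription factor count went from 1 to 0. Of the 6 other lists refitted with the block (macrophage, T and B cell, interferon, NF-kB, histone and immediate early), no count moved by over 1.5 times. With 3 mice per group, genes under 1 CPM had a median SE of 0.76, so absence of a call there carries little information.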
